A study of Mus musculus with 2 samples.

Results

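The Polycomb repressive complex genes of the mouse neural tube are described here: 10 genes, chosen by name and found by Ensembl identifier in the gene tables of both libraries, of 43346 genes in all. Ezh1, Ezh2, Eed and Suz12 are the 4 genes of Polycomb repressive complex 2 (PRC2), and Rnf2, Bmi1, Cbx2, Cbx6, Cbx7 and Cbx8 are the 6 genes of Polycomb repressive complex 1 (PRC1).

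Polycomb complexes keep developmental genes silent through chromatin. PRC2 methylates a lysine in the tail of histone H3 through its catalytic subunit, Ezh1 or Ezh2, and needs the subunits Eed and Suz12 for this activity. PRC1 attaches ubiquitin to histone H2A through Rnf2 or Ring1, each paired with a Pcgf protein such as Bmi1, and its canonical forms dock on methylated H3 through a Cbx protein. In the developing nervous system these complexes are known for silencing Hox and other patterning genes, for timing the switch of progenitors between cell fates, and, in the case of Bmi1, for the self-renewal of neural stem cells.

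Total RNA was sequenced from the neural tube of embryos of mouse strain B6NCrl at embryonic day 14.5, in 1 group of 2 libraries with no treatment, mutant or other age beside it. Per the labels, each library came from a single tube: that of pup 1 of pregnant female 1 for replicate 1, and that of pup 1 of pregnant female 2 for replicate 2. Both were collected on the same day, and each library was made from 10 ng of RNA with spike-in RNA added. The sex is labelled as male and female pooled, although each library is described as coming from a single pup. With 1 group there is no contrast between conditions and no p-value. Levels are given as TPM, a transcript abundance scaled by transcript length and to the same total in each library, with the mean ± SD of the 2 libraries, and the ratio of replicate 1 to replicate 2 describes these 2 libraries alone.

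The deposited tables held 33360108 expected counts in replicate 1 and 26025302 in replicate 2, and spike-ins made up 3.31% and 2.29% of the counts on genes and spike-ins. All 10 listed neuron markers and all 10 listed progenitor markers reached 1 TPM in both libraries, led by Tubb3 at 1292 and 1308 TPM and by Fabp7 at 1772 and 1812 TPM. The libraries stood apart in markers of tissue around the tube. The summed level of the sensory ganglion neuron markers was 5.71 TPM in replicate 1 and 175.5 TPM in replicate 2, and that of the meningeal and fibroblast markers was 80.8 and 1020 TPM. None of the found markers was at 0 counts in either library. In bulk tissue such as this, fewer cells of a type and less RNA per cell cannot be told apart, which holds for every level below.

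All 10 Polycomb genes reached 1 TPM in both libraries, as did 60.8% of the 21474 protein-coding genes. Their mean levels ran between 3.64 ± 0.304 TPM for Cbx7 and 102.3 ± 5.80 TPM for Rnf2 (SD, n = 2). Rnf2 stood higher than 87.7% of the protein-coding genes detected in both libraries, and Cbx7 higher than 11.9% of them, around a median of 21.2 TPM.

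**Figure D1:**
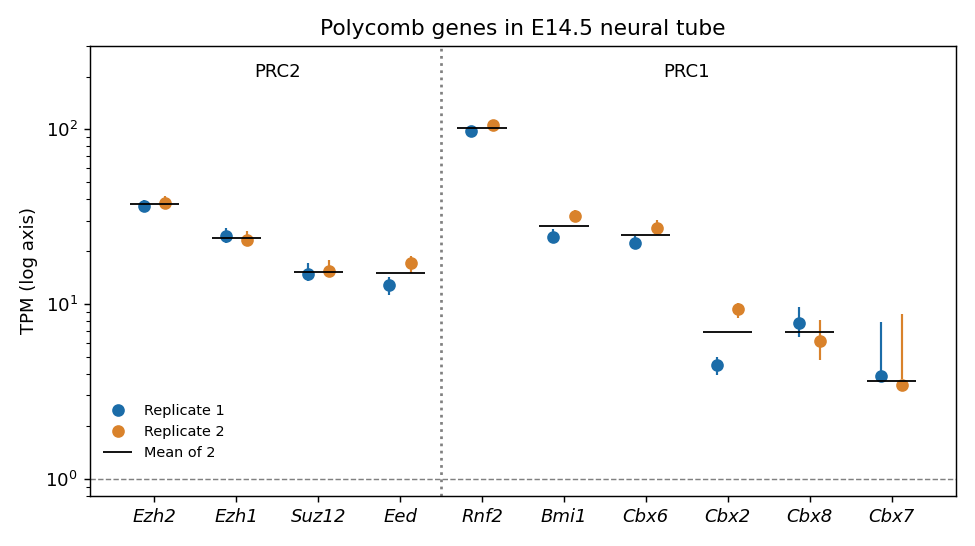
Deposited TPM of the 10 genes on a log axis, with replicate 1 (blue) left of replicate 2 (orange), vertical lines for the deposited bounds of each value, horizontal bars for the mean of 2 and a dashed line at 1 TPM. Rnf2 was the highest gene in both libraries and Cbx7 the lowest. On this log axis, which shows ratios, Cbx2 had the widest gap between its libraries, at 4.48 and 9.39 TPM.

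In the order of their means the genes ran Rnf2, Ezh2, Bmi1, Cbx6, Ezh1, Suz12, Eed, Cbx2, Cbx8 and Cbx7. The values of neighbours did not overlap between Rnf2 and Ezh2, Ezh2 and Bmi1, Ezh1 and Suz12, Eed and Cbx2, or Cbx8 and Cbx7, though the deposited bounds of Cbx8 and Cbx7 overlapped, as did the values over their protein-coding forms. They overlapped between Bmi1 and Cbx6, Cbx6 and Ezh1, Suz12 and Eed, and Cbx2 and Cbx8, so that these pairs did not differ beyond their spread, though Bmi1 was above Cbx6 within each library, 1.09-fold in replicate 1 and 1.17-fold in replicate 2. Across the complexes, the PRC2 median was 19.6 TPM in replicate 1 and 20.3 TPM in replicate 2, against 15.0 and 18.3 TPM for PRC1. Each median is the midpoint of the 2 middle genes. Those of PRC1 stood far apart, Cbx8 at 7.75 and Cbx6 at 22.3 TPM in replicate 1, and Cbx2 at 9.39 and Cbx6 at 27.2 TPM in replicate 2. With medians taken on the log2(TPM + 1) scale, the PRC2 median lay 0.40 ± 0.14 above the PRC1 median (SD, n = 2). The size of this difference depends on how the gap in PRC1 is averaged. Rnf2, the highest of all 10, and the 3 lowest genes, Cbx2, Cbx8 and Cbx7, all belong to PRC1.

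Ezh2, the methyltransferase subunit that prevails in dividing cells, had 36.2 TPM in replicate 1 and 38.1 TPM in replicate 2, from 1481 and 1211 counts (GRCm38, chr6:47530139-47595341, minus strand). Ezh1, its paralogue, which is better known from non-dividing cells and has the weaker methyltransferase activity, had 24.4 and 23.4 TPM, from 1484 and 1179 counts (chr11:101191115-101226463, minus strand). Ezh2 was above Ezh1 in both libraries, 1.48-fold in replicate 1 and 1.63-fold in replicate 2, and the 2 pairs of values did not overlap. On the log2(TPM + 1) scale the difference was 0.61 ± 0.09 (SD, n = 2). The deposited bounds around each value did not overlap either, at 34.0 to 39.3 and 35.5 to 41.7 TPM for Ezh2 and 22.3 to 27.3 and 21.6 to 26.1 TPM for Ezh1, though the probability they cover is not given in the headers. The counts of the genes were close to each other, and the difference in TPM comes with a shorter estimated transcript length for Ezh2, 2120 and 2223 bases, than for Ezh1, 3101 and 3469 bases. Ezh2 thus made up 59.7% and 62.0% of the TPM of the pair.

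The transcript tables split each of these genes among forms that differ in the catalytic part of the protein. Ezh2-201, with 746 codons, held 51.5% of Ezh2 TPM in replicate 1 and 54.2% in replicate 2. Ezh2-202 held 11.2% and 12.5%. It has 704 codons and lacks an exon of 126 bases (chr6:47541845-47541970, minus strand) that codes for 42 residues of the cysteine-rich region before the SET domain, the domain that carries the methyltransferase activity. The exon is shown because it tells the 2 forms apart. Capitals mark it in Ezh2-201, lower case marks 20 bases of the exons on each side, and Ezh2-202 joins those exons directly. The sequences are from the transcripts of GENCODE mouse release 21 (M21) on GRCm38.
Ezh2-201 exon: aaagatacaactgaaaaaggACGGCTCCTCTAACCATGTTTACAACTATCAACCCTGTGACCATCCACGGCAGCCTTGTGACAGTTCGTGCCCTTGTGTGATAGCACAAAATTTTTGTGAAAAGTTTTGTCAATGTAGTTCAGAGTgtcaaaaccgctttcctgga
Ezh2-202 join: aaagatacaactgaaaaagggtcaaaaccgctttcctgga

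Ezh2-202 was estimated at 4.05 TPM in replicate 1 and 4.75 TPM in replicate 2, with bounds of 2.48 to 5.59 and 2.66 to 6.54 TPM. Both intervals lay away from 0, and the share was close in the 2 libraries. Of Ezh1, Ezh1-203, the form with 750 codons, held 44.3% in replicate 1 and 58.6% in replicate 2. Its estimates of 10.8 and 13.7 TPM lay above their own deposited upper bounds of 10.5 and 12.9 TPM, and the lower bounds were 1.19 and 0.859 TPM, so the level of this form was poorly fixed. Ezh1-201 was better fixed, at 6.90 and 5.73 TPM with bounds of 5.74 to 7.68 and 4.61 to 6.36 TPM, and held 28.3% and 24.5% of the gene. It has 579 codons and lacks the last 6 exons of Ezh1-203, which hold the SET part. It reads on past the end of an exon that the forms share, through 77 coding bases, into a stop codon. That reading frame is shown because it ends the protein before the SET domain. Lower case marks the last 20 bases of the shared exon, and capitals mark the bases from there through the stop codon (chr11:101199178-101199257, minus strand).
Ezh1-201 extension: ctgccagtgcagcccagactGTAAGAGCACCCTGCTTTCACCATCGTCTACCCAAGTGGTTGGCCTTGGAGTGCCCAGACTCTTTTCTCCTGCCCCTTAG

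Another form, Ezh1-207, which is annotated as not coding, held 12.7% of Ezh1 in replicate 1 and 4.72% in replicate 2. Protein-coding forms together held 72.6% and 83.1% of Ezh1 and 70.0% and 73.2% of Ezh2. Counted over protein-coding forms only, an alternative added after seeing the data, Ezh2 stood at 25.3 and 27.9 TPM and Ezh1 at 17.7 and 19.4 TPM, and the log2(TPM + 1) difference was 0.50.

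Eed, the subunit that binds methylated H3 and stimulates the enzyme, had 12.8 TPM in replicate 1 and 17.2 TPM in replicate 2, from 471 and 478 counts (chr7:89954654-89980983, minus strand). Suz12, the scaffold subunit that holds the core together, had 14.9 and 15.5 TPM, from 961 and 812 counts (chr11:79993106-80034123, plus strand). Suz12 was the higher of the 2 in replicate 1 and Eed in replicate 2, so their levels were not told apart, and both lay below both Ezh genes in each library. Eed was nearly all 1 form, Eed-201, with 90.7% and 92.9% of its TPM. Suz12 was split. Suz12-201, with 741 codons, held 46.8% in replicate 1 and 65.3% in replicate 2, and Suz12-206, with 718 codons, held 24.6% and 14.3%. Suz12-206 lacks an exon of 69 bases, which is 23 codons (chr11:79999057-79999125, plus strand). It is shown in capitals between 20 bases of its neighbouring exons, above the join that replaces it.
Suz12-201 exon: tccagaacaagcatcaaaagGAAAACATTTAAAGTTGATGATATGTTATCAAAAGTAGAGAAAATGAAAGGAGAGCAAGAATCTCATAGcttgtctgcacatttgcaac
Suz12-206 join: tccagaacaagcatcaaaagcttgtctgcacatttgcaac

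The share of Suz12-206 differed between the libraries, but its bounds overlapped, at 0.899 to 5.35 TPM in replicate 1 and 0.431 to 6.45 TPM in replicate 2. Those of Suz12-201, 4.96 to 9.49 and 5.44 to 11.6 TPM, also overlapped between the libraries. A pair of retained-intron forms made up most of the rest. Suz12-203 held 14.3% and 17.2%, and Suz12-205 held 14.2% and 3.22%, from 22.0 and 3.83 expected counts. Protein-coding forms held 71.4% and 79.5% of Suz12.

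**Figure D2:**
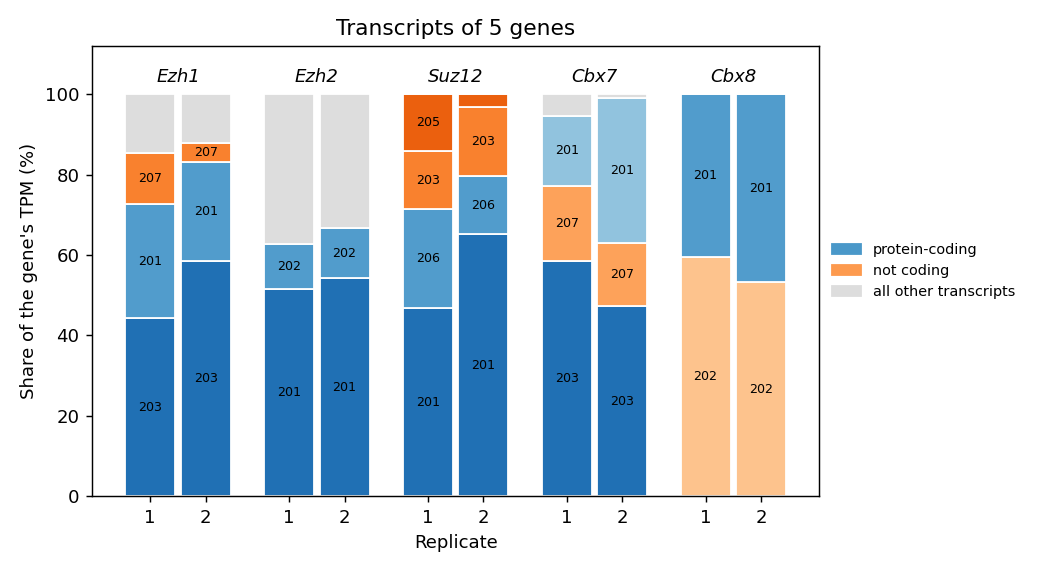
Transcripts that held at least 10% of their gene's TPM in either library, for 5 genes, as percent of the gene, with replicate 1 left of replicate 2, protein-coding forms in blue, non-coding forms in orange and all other transcripts in grey. Numbers in the bars are the suffixes of the transcript names, and the non-coding Cbx8-202 held 59.5% and 53.2% of Cbx8.

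Rnf2, also called Ring1b, is the ubiquitin ligase of PRC1. It had 98.2 TPM in replicate 1 and 106.4 TPM in replicate 2, from 5873 and 4683 counts (chr1:151458004-151500955, minus strand). It was the highest of the 10 genes in both libraries, 2.72-fold and 2.79-fold above Ezh2, the next. Ring1, the paralogue that can take its place in the complex, had 5.77 and 4.59 TPM, so that Rnf2 was 17.0-fold higher in replicate 1 and 23.2-fold in replicate 2 and made up 94.4% and 95.9% of the TPM of the pair. The main form, Rnf2-201, held 95.1% and 94.5% of the gene.

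Bmi1, the Pcgf protein of canonical PRC1 best known from stem cells, had 24.3 TPM in replicate 1 and 31.9 TPM in replicate 2, from 1636 and 1537 counts (chr2:18677018-18686629, plus strand). It stood 4.04-fold and 3.33-fold below Rnf2. Bmi1-201 held 79.7% and 81.5% of it and Bmi1-202 20.3% and 12.9%, and both code for the same 324 codons behind different first exons. Within the Pcgf family, whose 6 members define different PRC1 complexes, Bmi1 held 18.1% of the TPM in replicate 1 and 21.8% in replicate 2. Pcgf1 held 23.0% and 22.3%, Pcgf3 19.5% and 20.9%, Pcgf6 21.8% and 19.1%, and Pcgf2, the closest relative of Bmi1, 15.1% and 13.8%. Pcgf5 had 2.58% and 2.06%. No Pcgf gene dominated as Rnf2 did among the ring proteins. Pcgf2 had 20.3 TPM in replicate 1 and 20.2 TPM in replicate 2, below Bmi1 in both.

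The Cbx proteins carry the chromodomain that reads methylated H3, and 4 of the 10 genes code for such proteins. Cbx6 had 22.3 TPM in replicate 1 and 27.2 TPM in replicate 2, from 1644 and 1503 counts (chr15:79823896-79834688, minus strand). Cbx2 had 4.48 and 9.39 TPM, from 331 and 503 counts (chr11:119022962-119031270, plus strand). Cbx8 had 7.75 and 6.12 TPM, from 286 and 183 counts (chr11:119036305-119040969, minus strand). Cbx7, known from self-renewing embryonic stem cells, had 3.85 and 3.42 TPM, from 262 and 177 counts (chr15:79915807-79971119, minus strand). By these values Cbx6 was the highest and Cbx7 the lowest in both libraries, whereas Cbx8 exceeded Cbx2 1.73-fold in replicate 1 and stood at 0.652 of it in replicate 2.

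Of the summed TPM of these 4 genes, Cbx6 held 58.1% in replicate 1 and 59.0% in replicate 2. Cbx2 held 11.7% and 20.4%, Cbx8 20.2% and 13.3%, and Cbx7 10.0% and 7.41%. Cbx6 was 4.98-fold above Cbx2 in replicate 1 and 2.90-fold in replicate 2, a log2(TPM + 1) difference of 1.76 ± 0.46 (SD, n = 2).

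The Cbx levels leaned on how reads were shared among transcripts. Of Cbx8, the non-coding Cbx8-202, which keeps an intron and is 789 bases long, held 59.5% of the TPM in replicate 1 and 53.2% in replicate 2 from 64.5 and 33.7 expected counts. The coding Cbx8-201, with 362 codons, held 40.5% and 46.8% from 221.5 and 149.3 expected counts. The long coding form thus had most of the counts and the short non-coding form most of the TPM, and over protein-coding forms only Cbx8 stood at 3.14 and 2.87 TPM, level with the protein-coding forms of Cbx7 at 3.15 and 2.89 TPM. Of Cbx7, Cbx7-203, with 158 codons, held 58.5% and 47.2%, Cbx7-201, with 251 codons, 17.5% and 36.1%, and the retained-intron form Cbx7-207 18.6% and 15.8%. The bounds of Cbx7-201, 0.000199 to 1.05 and 0.363 to 1.86 TPM, overlapped between the libraries. The TPM of the whole gene lay just under its own deposited lower bounds of 3.92 and 3.73 TPM, and the deposited posterior mean was 5.76 TPM on average, against 3.64 TPM for the deposited TPM. Cbx6 was split between Cbx6-202, with 396 codons, at 46.0% and 44.3%, and Cbx6-203, with 414 codons, at 38.7% and 40.5%. The non-coding Cbx6-204 held 10.7% and 7.36%. Cbx2 was nearly all 1 form, Cbx2-201, with 98.0% and 95.8%, so transcript sharing bears little on its level.

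Cbx2 was the only one of the 10 genes that differed at least 1.5-fold between the libraries. It was lower in replicate 1, with 331 counts against 503 in replicate 2, and the ratio of replicate 1 to replicate 2 was 0.520 after TMM scaling (95% exact counting interval 0.451 to 0.598). Of the 12894 genes tested, those that averaged 100 counts or more, 10.1% differed at least 1.5-fold in either direction and 6.87% were at least 1.5-fold lower in replicate 1. A count of 1 in 10 is therefore near the background. The intervals reflect counting error alone, because they are computed from the pair of counts, and they say nothing of the spread between embryos. They treat each read as separate, so copies of a molecule made by amplification and counted as separate reads would make them too narrow. The deposited bounds of Cbx2, 3.94 to 4.98 TPM in replicate 1 and 8.29 to 10.1 TPM in replicate 2, did not overlap. Neither did those of Eed, Bmi1 and Cbx6 between the libraries, so this did not set Cbx2 apart. How many of all genes had such bounds was not counted.

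Of the other 9 genes, Eed was lower in replicate 1 at a ratio of 0.778 (0.684 to 0.886), Bmi1 at 0.841 (0.784 to 0.902) and Cbx6 at 0.864 (0.805 to 0.927). Cbx8 was higher in replicate 1 at 1.23 (1.02 to 1.49). The intervals of Ezh1, Ezh2, Suz12, Rnf2 and Cbx7 contained 1, with ratios between 0.934 for Suz12 and 1.17 for Cbx7. The median ratio of the 10 genes was 0.95, beside 0.998 over all genes tested. By TMM, 8 of the 10 were lower in replicate 1 and 2, Cbx7 and Cbx8, were higher. The 8 include Ezh1 at 0.994, Rnf2 at 0.990 and Ezh2 at 0.966, which were close to 1. All genes tested lay about evenly on both sides of their median ratio of 0.998. Scaling to the spike-ins lowered every log2 ratio by 0.55, under which all 10 were lower in replicate 1, Cbx7 and Cbx8 included, at 0.799 and 0.843. The median log2 ratio over all genes tested was -0.003 by TMM and -0.552 by spike-ins, so most of those genes were also lower under spike-in scaling. How many of all genes had an interval that contained 1 was not counted. By the ratio of deposited TPM, 7 were lower, since Ezh1 turned to 1.04 from 0.994. Its estimated transcript length differed between the libraries.

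**Figure D3:**
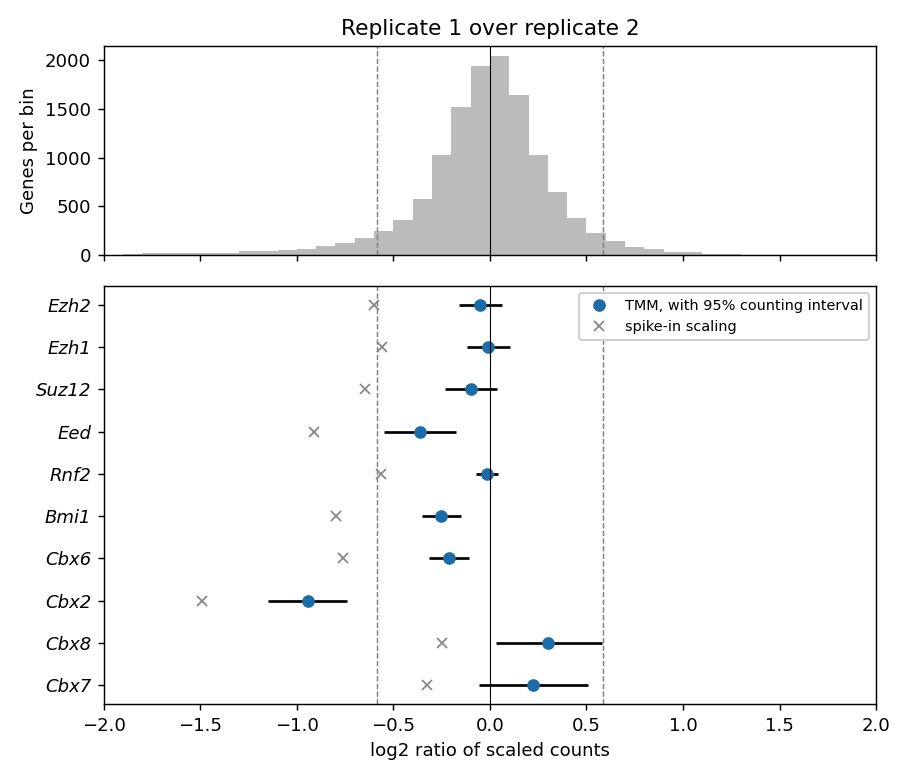
Ratio of replicate 1 to replicate 2 on a log2 axis, with the distribution over all 12894 genes that averaged 100 counts or more above and the 10 Polycomb genes below; dots are TMM-scaled ratios with 95% counting intervals, crosses the ratios scaled to spike-ins, and dashed lines mark 1.5-fold (genes beyond the ends of the axis are not drawn). Cbx2 alone lay past the left line by TMM, at a ratio of 0.520, and all crosses lay left of 0. The median log2 ratio of all 12894 genes under spike-in scaling was -0.552.

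Marker levels also differed between the libraries, in both directions. With 2 libraries no likeness of pattern between a marker and Cbx2 can be measured. All 10 cell cycle markers were detected, with a summed level of 204.6 TPM in replicate 1 and 263.3 TPM in replicate 2, ratios from 0.615 to 1.06 with a median of 0.710, and 2 genes at least 1.5-fold lower in replicate 1. The highest of them, Pcna, had 80.8 and 82.3 TPM. The progenitor markers summed to 2438 and 2663 TPM with a median ratio of 0.833, and 1 of 10 was at least 1.5-fold lower in replicate 1. Of all genes tested, 6.87% were at least 1.5-fold lower in replicate 1, so 1 in 10 is near the background and 2 in 10 is a small count. The neuron markers summed to 4379 and 4525 TPM with a median ratio of 1.07, and none of the 10 passed 1.5-fold. Of the markers at a mean count of at least 100, all 6 ganglion neuron markers were at least 1.5-fold lower in replicate 1, as were 6 of 7 meningeal and fibroblast, 6 of 6 endothelial and 4 of 6 microglial markers. The highest of the last 3 lists were Col3a1 at 9.70 and 419.2 TPM, Cldn5 at 35.7 and 90.0 TPM, and C1qb at 22.3 and 40.7 TPM. The summed levels were 79.7 and 186.1 TPM for endothelial and 86.0 and 151.7 TPM for microglial markers. Skeletal muscle markers went the other way, summing to 45.2 and 24.6 TPM and led by Acta1 at 18.0 and 7.36 TPM, with 3 of 3 at least 1.5-fold higher in replicate 1. Erythroid markers summed to 10950 and 9338 TPM, led by Hba-a2 at 4849 and 4312 TPM, and none passed 1.5-fold. The part of these differences in the Polycomb ratios was not tested.

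Beyond the 10 genes, 37 other genes of Polycomb complexes and of the enzymes that remove their marks were listed, and 36 of them reached 1 TPM in both libraries. The 8 other PRC2 genes were led by the histone-binding proteins Rbbp4, at 180.1 TPM in replicate 1 and 214.7 TPM in replicate 2, and Rbbp7, at 155.2 and 173.1 TPM, which other chromatin complexes share. Next was Mtf2, an accessory subunit that helps bring PRC2 to CpG islands, at 55.6 and 61.1 TPM. Rbbp4 was 12.1-fold and 13.9-fold above Suz12, though protein-coding forms held only 31.8% and 26.4% of Rbbp4. Over those forms Rbbp4 stood at 57.3 and 56.6 TPM, below Rbbp7 at 155.2 and 173.1 TPM. The 21 other PRC1 genes were led by Yaf2, which marks variant PRC1, at 105.2 and 111.5 TPM. Scmh1, a Polycomb-associated SAM domain protein, followed at 72.1 and 77.4 TPM, and Kdm2b, which brings a variant PRC1 to unmethylated CpG islands, at 68.5 and 79.6 TPM. The values of Yaf2 and Rnf2 overlapped, and both genes were above the Cbx and Pcgf genes described here. Over protein-coding forms Yaf2, at 71.6 and 79.4 TPM, did not overlap Rnf2, at 94.35 and 102.06 TPM. Over those forms Scmh1, at 38.3 and 41.7 TPM, was below Kdm2b, at 64.6 and 76.8 TPM.

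The 8 genes of mark removal were led by Bap1, the deubiquitinase of histone H2A, at 76.9 TPM in replicate 1 and 82.4 TPM in replicate 2. Usp16, another deubiquitinase of H2A, had 53.0 and 44.1 TPM, of which protein-coding forms held only 19.2% and 25.3%, or 10.2 and 11.2 TPM. Kdm6b, a demethylase of the H3 mark set by PRC2, had 29.7 and 29.5 TPM, with 28.6 and 28.3 TPM in protein-coding forms, and so was above Usp16 over those forms. Of the 34 other genes that averaged 100 counts or more, 1 differed at least 1.5-fold, beside 10.1% of all genes, and the median ratio was 0.994. That gene, Uty, is the Y-linked relative of the demethylase gene Kdm6a. It had 0 counts in replicate 1 and 906 counts, or 19.7 TPM, in replicate 2. A gene on the Y chromosome is carried by male embryos only, and the label gives both libraries as male and female pooled, so this difference cannot be told apart from one in the sex of the pups. It was the only one of the 37 under 1 TPM in a library.

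Several of the 10 genes lie close to each other or to other genes. Cbx2 and Cbx8 are neighbours on chromosome 11 with 5034 bases between them. Cbx2 had the lowest and Cbx8 the highest ratio of replicate 1 to replicate 2 of the 10 genes. Cbx6 and Cbx7 lie 81118 bases apart on chromosome 15. Npcd overlaps 10342 bases of Cbx6 on the same strand and had 28 counts in replicate 1 and 9 in replicate 2, so few reads were given to it beside the 1644 and 1503 of Cbx6. On the opposite strand, Trmt1l overlaps Rnf2 by 158 bases, at 33.5 and 40.0 TPM, and Apobec3 overlaps Cbx7 by 100 bases, at 4.36 and 8.09 TPM. Non-coding genes on the opposite strand overlap Ezh2 (Gm26625, at 0.95 and 0.93 TPM), Eed (E230029C05Rik, at 2.94 and 2.65 TPM) and Suz12 (Gm26563, at 1.85 and 1.79 TPM). Gm36527, annotated as a gene to be checked by experiment, overlaps 3029 bases of Rnf2 on the same strand, at 0.79 and 0.68 TPM. The strand setting of the counting is not given in the sources used here, so reads of genes on opposite strands may not have been separated.

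The promoters of the genes held more CG pairs than the median promoter. In RefSeq windows on GRCm38.p6 of 250 bases before to 50 bases after the annotated start, 9 of the 10 genes had an entry, and they held 17 to 41 CG pairs with a median of 30. The median over 21263 protein-coding promoters was 13, and 42.7% of them held at least 17. The letters TTTCCCGC, TTTCGCGC, TTTGCCGC and TTTGGCGC, the forms of the E2F consensus, were searched on both strands. They were found in 2 of the 9, Ezh2 and Suz12, against 2.85% of all those promoters. In Ezh2, TTTGGCGC begins 3 bases past the RefSeq start, and in Suz12, TTTCCCGC begins 219 bases before the RefSeq start. The windows of Ezh2, Cbx6 and Cbx7 lay whole inside the GENCODE gene coordinates given above, so their RefSeq starts differ from the outer ends of those coordinates. These matches describe letters only and show no binding.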

How the data were processed

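Total RNA of 2 neural tubes of 1 group was measured. Per the labels and deposited texts, the mm10 assembly and GENCODE mouse release 4 were used for quantification. No aligner, quantifier or strand setting is named there. The deposited expected counts are read estimates without normalisation by the authors. The deposited TPM values are scaled to one total over all rows, with spike-ins among them. The authors' FPKM column, which takes length and depth into account, served as an alternative. The deposited percent columns give each transcript's part of the TPM of its gene.

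Symbols, 1-based coordinates and exons came from GENCODE mouse release 21 (M21, GRCm38), matched by unversioned identifier for 42462 of 43346 gene rows. The genes and lists were chosen with earlier results of these data known. Expected counts were rounded. Ratios of replicate 1 to replicate 2 used edgeR 4.0.16 under R 4.3.3 (TMM library sizes, prior count 0.5) with exact Clopper-Pearson 95% intervals. The ratio step was tested on simulated data. Alternatives were DESeq2 1.42.0 size factors, spike-in scaling, other thresholds and units, and each library alone. Python 3.11.15 with pandas 2.3.3, NumPy 2.4.6, SciPy 1.17.1 and matplotlib 3.10.9 did the rest.

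Genes named in the text are the 10 members, the 3 highest of each other Polycomb list, those of these lists under 1 TPM or past 1.5-fold at 100 counts on average, the highest of each marker list, transcripts with at least 10% of a member, and genes that overlap a member. The other Pcgf, Phc and Ring genes, Epop and Kdm6a fall outside this rule and were named after their values were seen. Some genes that the rule or the lists hold are not reported here, though list sums and counts include them.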

Additional observations from a re-analysis of the deposited data

How the results depend on the processing

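The counts of detected genes stayed within 1.5 times of the reported ones, and the log2 differences Ezh2 minus Ezh1, Cbx6 minus Cbx2 and PRC2 minus PRC1 kept their direction, under every alternative run. Without either replicate, Ezh2 minus Ezh1 ranged from 0.55 to 0.68, PRC2 minus PRC1 from 0.30 to 0.49, Cbx6 minus Cbx2 from 1.44 to 2.09, the members detected stayed at 10 and the other Polycomb genes detected ranged from 36 to 37. With protein-coding transcripts only, added after seeing the data, Ezh2 minus Ezh1 was 0.50. The count of members that differed between the libraries, 1 by TMM, was 0 at 2-fold (3.65% of all genes) and 6 under spike-in scaling (Ezh2, Eed, Suz12, Bmi1, Cbx2 and Cbx6, all lower in replicate 1), where 45.2% of all genes passed. That of other Polycomb genes, 1 by TMM, was 14 under spike-in scaling, 2 by the deposited TPM ratio (Phc2 and Uty; 11.1% of all genes), 2 at a mean count of at least 10 (Epop and Uty; 19.2%) and 2 with no filter (35.4%). The larger counts under spike-in scaling come with its shift of every ratio; the cause of that shift was not tested. DESeq2 size factors moved every log2 ratio by 0.006 in size. Counts between the libraries cannot be recomputed without a library. No paired analysis was possible because there is 1 group. Among the members, Cbx7, with 262 and 177, and Cbx8, with 286 and 183, had the fewest counts, and Ring1, the base of the ratio with Rnf2, had 174 and 139.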
